A study of Mus musculus with 2 samples.

Results

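The 9 genes described here, Sall1, Sall3, Mef2a, Mef2c, Irf8, Spi1, Maf, Runx1 and Cebpa, encode transcription factors that give microglia their identity. They were chosen by name and make up 9 of the 32285 genes counted in the brain immune cells of 8 mice. Each symbol matched 1 row of the tables.

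Microglia are the resident macrophages of the brain parenchyma. Spi1 (PU.1), Irf8, Runx1 and Cebpa act in the making of myeloid cells as a whole, whereas Sall1 and the MEF2 and MAF factors add the enhancer program of a macrophage settled in the brain, in which TGFβ signalling takes part. The Arp2/3 complex, of which Arpc4 is a subunit, nucleates branched actin filaments and is not itself a part of this program.

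The tables came from 4 control mice, which were Cre-negative Arpc4 fl/fl littermates, and 4 Arpc4dCx3cr1 mice, which carried Tg(Cx3cr1-Cre) on the same Arpc4 fl/fl background. The mice were 12 weeks old, and all 8 carried the floxed alleles, so the groups differed by the Cre transgene by design. By the study's methods 1 of the Arpc4dCx3cr1 mice was female and the other mice were male, so sex was not balanced between the groups. The Cx3cr1 promoter is active in microglia and also in CNS-associated macrophages (CAMs), the macrophages of brain borders, and in monocytes. Living CD45+ cells, which are immune cells, were sorted from dissociated brains, marked with a tag for each mouse and pooled into 1 library, in which transcripts were read at their 3′ end.

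The tables held 19864 cells, of which 19863 were kept, with 5251527 to 12874659 counts of unique molecular identifiers (UMIs, each 1 captured RNA molecule) per mouse. No barcode was shared between mice, and in each mouse the tag named by its label led in at least 98.9% of the cells. Clusters were named from marker genes as microglia-like (17036 cells), CAM-like (413), monocyte-like (345), T cell-like (308), proliferating (94), granulocyte-like (80) and B cell-like (78), and 1509 cells of very low UMI counts stayed unnamed. In microglia-like cells Arpc4 lay at 216 to 237 CPM (the UMIs of a gene relative to all UMIs of the cells) in the control and 138 to 153 CPM in the Arpc4dCx3cr1 mice (log2 fold change −0.63 ± 0.05 SE, adjusted p = 5.45e-06). Whether the counted 3′ end lies inside the deleted part of the gene is not given in the sources used here. Arpc4dCx3cr1 mouse 1 stood apart: its microglia-like cells held 1383 CPM of Xist and 1487 CPM of hemoglobin transcripts, against 3.65 to 13.2 and 2.38 to 4.21 CPM in the other 7 mice. Xist is transcribed in female cells, so mouse 1 was most likely the female Arpc4dCx3cr1 mouse that the study left out. The genotype differences of the factors in microglia-like cells are therefore also given without it, while levels by class, marker sums and gene lists include it.

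Between genotypes, 6 of the 9 factors fell in microglia-like cells and none rose. The 6 were Maf, Sall1, Sall3, Mef2a, Mef2c and Spi1, while Irf8, Runx1 and Cebpa did not pass the threshold. Of all 12730 genes tested 46.0% were called, 22.8% as higher and 23.2% as lower, and 44.2% did not overlap, so a call by itself was common in this comparison. Counts were summed over the microglia-like cells of a mouse, so that mice are the replicates. The p-values come from the quasi-likelihood test of edgeR and were adjusted over all genes tested (Benjamini-Hochberg), and CPM in the tests include the TMM normalization.

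**Figure D1:**
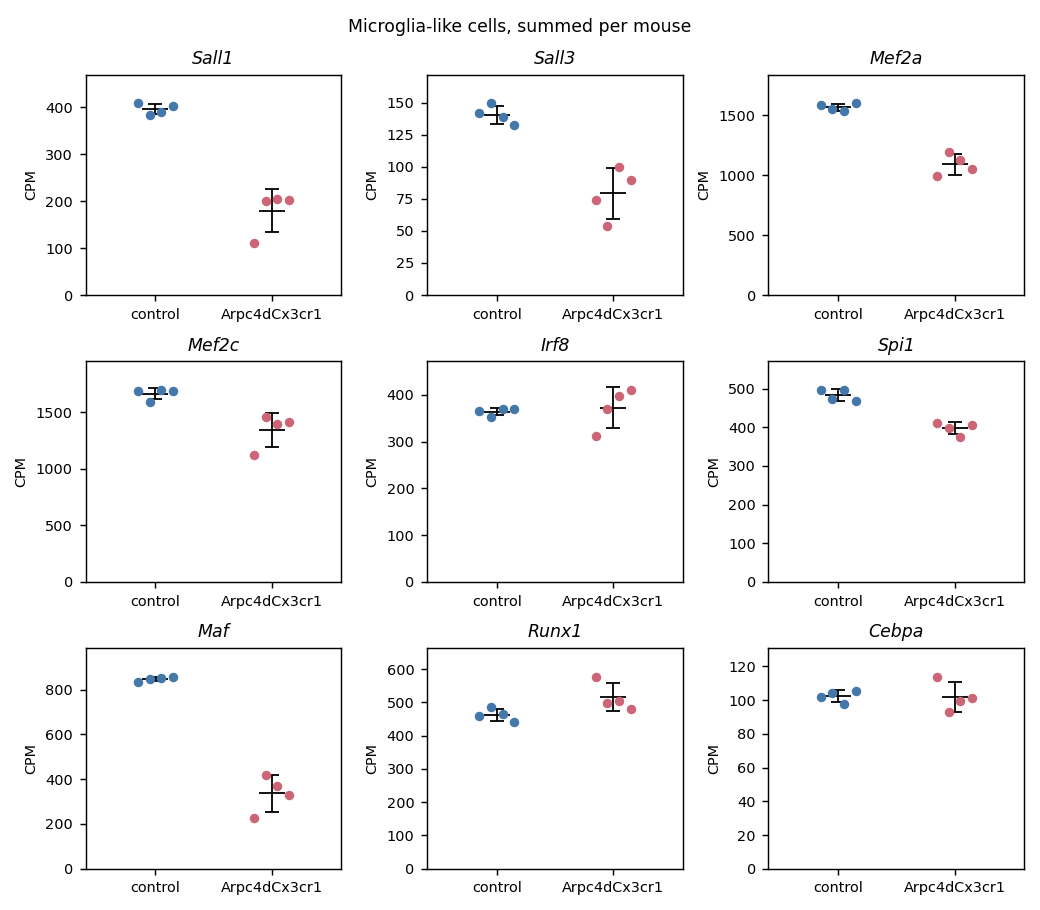
Level of each of the 9 factors in microglia-like cells, in CPM (vertical axes, linear and starting at 0), with 1 point per mouse, in blue for the 4 control and in red for the 4 Arpc4dCx3cr1 mice; bars give the mean and SD. Maf falls from a mean of 847 to 336 CPM and Sall1 from 396 to 180 CPM with no overlap, whereas the points of Irf8 and Cebpa overlap.

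Sall1 and Sall3 are spalt-like zinc finger factors, and Sall1 is the factor most closely tied to microglia among the macrophages. Sall1 (ENSMUSG00000031665, mm10 chromosome 8, 89027235 to 89044162, minus strand) was read at 408.8, 384.6, 390.1 and 402.2 CPM in control mice 1 to 4 and at 111.3, 201.3, 204.3 and 201.7 CPM in Arpc4dCx3cr1 mice 1 to 4. All 4 Arpc4dCx3cr1 mice lay below all 4 controls, and mouse 1 lay below the other 3 of its group. The mean fell from 396 ± 11.1 to 180 ± 45.6 CPM (SD, n = 4 each; log2 fold change −1.14 ± 0.16 SE, adjusted p = 1.88e-04), and without Arpc4dCx3cr1 mouse 1 the log2 fold change was −0.97. Sall3 (ENSMUSG00000024565, chromosome 18, 80966376 to 80986771, minus strand), a relative of Sall1, was read at 141.6, 149.5, 138.5 and 132.9 CPM in the controls and at 73.85, 54.16, 99.92 and 89.7 CPM in the Arpc4dCx3cr1 mice. The groups did not overlap, and here the lowest value was that of mouse 2, not of mouse 1. Sall3 fell by 0.82 on the log2 scale (SE 0.15, adjusted p = 0.00111), and by 0.78 without mouse 1.

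Maf, a basic leucine zipper factor of microglia and other tissue macrophages (ENSMUSG00000055435, chromosome 8, 115682942 to 115707794, minus strand), had the largest change of the 9. The control mice held 832.5, 848.7, 850.4 and 855.7 CPM and the Arpc4dCx3cr1 mice 224.4, 419.2, 369.9 and 330.6 CPM. The highest Arpc4dCx3cr1 mouse thus stayed far below the lowest control, and the controls lay within a narrow band. The level in Arpc4dCx3cr1 mice was 39.8% of that in controls (log2 fold change −1.33 ± 0.15 SE, adjusted p = 3.82e-05; −1.18 without mouse 1).

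Mef2a and Mef2c are MADS-box factors of the MEF2 family. Mef2a (ENSMUSG00000030557, chromosome 7, 67231163 to 67372858, minus strand) was read at 1584, 1550, 1540 and 1601 CPM in controls and at 993, 1194, 1129 and 1052 CPM in Arpc4dCx3cr1 mice. It fell by 0.52 on the log2 scale (SE 0.06, adjusted p = 5.61e-05), and by 0.48 without mouse 1, and the groups did not overlap. Mef2c (ENSMUSG00000005583, chromosome 13, 83504034 to 83667080, plus strand) was read at 1687, 1593, 1697 and 1689 CPM in controls and at 1121, 1457, 1394 and 1412 CPM in Arpc4dCx3cr1 mice. Mouse 1 was again the lowest, and Mef2c fell by 0.31 on the log2 scale (SE 0.08, adjusted p = 0.0083) with it and by 0.23 without it. The study described Sall1 and Mef2a as reduced in an Ms4a7-high cluster of Arpc4-deficient microglia, against other microglial clusters of both genotypes, so a lower level of them in these cells is not independent evidence.

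Of the 4 general myeloid factors, Spi1 fell and the other 3 did not pass the threshold. Spi1, the PU.1 gene (ENSMUSG00000002111, chromosome 2, 91082390 to 91115756, plus strand), was read at 495.8, 473.1, 495.7 and 468.3 CPM in controls and at 410.5, 397.6, 375.3 and 405.5 CPM in Arpc4dCx3cr1 mice, with no overlap (log2 fold change −0.28 ± 0.05 SE, adjusted p = 9.35e-04; −0.29 without mouse 1). Irf8, the interferon regulatory factor of the macrophage lineage (ENSMUSG00000041515, chromosome 8, 120736358 to 120756694, plus strand), was read at 352.7 to 369.3 CPM in controls and at 311.4, 369.8, 397.1 and 409.9 CPM in Arpc4dCx3cr1 mice. Its groups overlapped, with mouse 1 below and mice 2 to 4 above every control (log2 fold change 0.03 ± 0.08 SE, adjusted p = 0.771). Without mouse 1 the log2 fold change was 0.11 (adjusted p = 0.0799). That order of the mice rests on the TMM normalization. Without it Irf8 lay at 366 to 387 CPM in controls and at 299, 363, 379 and 392 CPM in Arpc4dCx3cr1 mice, of which only mouse 4 was above every control.

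Runx1, the runt factor of blood and microglia development (ENSMUSG00000022952, chromosome 16, 92601466 to 92826149, minus strand), was read at 441.5 to 486.6 CPM in controls and at 576.1, 498.0, 504.7 and 481.3 CPM in Arpc4dCx3cr1 mice. Only the lowest Arpc4dCx3cr1 and the highest control mouse crossed (log2 fold change 0.16 ± 0.06 SE, adjusted p = 0.0716; 0.10 without mouse 1). DESeq2 called it as higher (0.17, adjusted p = 0.0461). Without the TMM normalization Runx1 lay at 463 to 505 CPM in controls and at 552, 488, 481 and 460.5 CPM in Arpc4dCx3cr1 mice, which overlapped more. Cebpa, a C/EBP factor (ENSMUSG00000034957, chromosome 7, 35119293 to 35121928, plus strand), was read at 97.95 to 105.6 CPM in controls and at 92.98 to 113.7 CPM in Arpc4dCx3cr1 mice (log2 fold change −0.01 ± 0.07 SE, adjusted p = 0.926; −0.06 without mouse 1). No gene on the same strand that is counted in the tables overlaps any of the 9, while 1 on the opposite strand overlaps each of Mef2a, Maf, Runx1 and Cebpa.

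To set factors that fell beside factors that were not called, the 250 bases before a start site are shown for Sall1, Mef2a, Mef2c, Irf8 and Cebpa. The sequences are from the promoter table of RefSeq (GRCm38.p6), run 5′ to 3′ on the strand of the gene, and are those of the start nearest to the annotated gene start. Capitals mark the letters TATAAA on either strand, the core of a TATA box, which was chosen after these sequences had been read.
Sall1 (chr8:89044163-89044412, minus strand): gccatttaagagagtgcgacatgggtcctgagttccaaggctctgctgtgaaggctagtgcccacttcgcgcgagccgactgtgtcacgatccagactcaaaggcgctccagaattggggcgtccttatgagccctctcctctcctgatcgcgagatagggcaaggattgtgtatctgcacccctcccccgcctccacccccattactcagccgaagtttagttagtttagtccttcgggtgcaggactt
Mef2a (chr7:67372859-67373108, minus strand): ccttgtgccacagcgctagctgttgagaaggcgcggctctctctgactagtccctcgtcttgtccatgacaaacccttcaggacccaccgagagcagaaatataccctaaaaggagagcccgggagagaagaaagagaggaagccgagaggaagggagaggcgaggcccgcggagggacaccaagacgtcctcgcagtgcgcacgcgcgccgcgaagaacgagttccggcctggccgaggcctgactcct
Mef2c (chr13:83503784-83504033, plus strand): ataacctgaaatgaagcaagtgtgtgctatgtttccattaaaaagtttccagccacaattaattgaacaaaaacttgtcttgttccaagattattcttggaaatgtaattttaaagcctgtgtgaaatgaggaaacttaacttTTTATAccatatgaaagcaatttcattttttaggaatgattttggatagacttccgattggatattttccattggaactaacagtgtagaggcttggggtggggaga
Irf8 (chr8:120736108-120736357, plus strand): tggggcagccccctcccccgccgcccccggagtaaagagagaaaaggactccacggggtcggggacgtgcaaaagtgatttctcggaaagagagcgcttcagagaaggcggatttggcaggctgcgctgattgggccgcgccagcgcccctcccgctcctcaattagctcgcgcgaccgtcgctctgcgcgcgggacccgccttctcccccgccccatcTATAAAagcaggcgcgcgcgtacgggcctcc
Cebpa (chr7:35119043-35119292, plus strand): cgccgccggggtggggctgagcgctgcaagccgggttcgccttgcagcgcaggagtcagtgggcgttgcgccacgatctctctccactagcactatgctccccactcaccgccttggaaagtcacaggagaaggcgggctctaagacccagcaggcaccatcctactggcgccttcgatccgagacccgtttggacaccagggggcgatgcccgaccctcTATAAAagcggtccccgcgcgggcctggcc

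The letters stood 31 bases before the start of Irf8 and 30 bases before that of Cebpa, which were not called, and 107 bases before this start of Mef2c, where they lie on the other strand. Mef2c, which fell, also held them 22 bases before another of its starts (chr13:83523406-83523655), again on the other strand. With both strands counted, the letters thus stood near a start in called and uncalled factors. On the strand of the gene they stood only in windows of Irf8 and Cebpa. Runx1, which was not called either and is not shown, held them on neither strand of its windows. Their place thus did not separate called from uncalled factors. They were in 4 of the 12 windows of the factors and in 12.4% of all 32851 promoters of the table. The number of CG dinucleotides was 13 for Sall1, 21 for Mef2a, 1 for Mef2c, 29 for Irf8 and 22 for Cebpa, against a median of 6 over all promoters. These 12 windows are the starts given for 6 of the factors. On both of their strands none of the following was found: GAGGAAGT for PU.1 (in 2.44% of all promoters), TAAAAATA for MEF2 (2.45%), the IRF element of GAAA, 2 free bases and GAAA (2.98%), TGTGGT for RUNX factors (14%), TTGCNNAA for C/EBP factors (9.56%), TGCTGAC for MAF factors (3.81%) and GTCTAGAC for SMAD factors (0.167%). This says only that these letters are not in these windows.

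The lower levels went with fewer cells that carried a transcript. At an equal depth of 2000 UMIs per cell, the share of microglia-like cells with at least 1 Maf UMI was 76.0 to 79.0% in control and 31.1 to 48.3% in Arpc4dCx3cr1 mice. For Sall1 these shares were 52.6 to 56.3% and 16.5 to 30.4%, and for Sall3 21.8 to 25.8% and 8.80 to 16.1%. For Mef2a they were 90.1 to 91.0% and 75 to 83.5%, for Mef2c 92.9 to 93.7% and 79.4 to 87.7%, and for Spi1 61.5 to 63.8% and 51.3 to 54.6%. These 6 factors were the ones whose groups did not overlap, against 40.6% of all genes tested (14.4% as higher and 26.2% as lower). Each had an exact permutation p of 0.0286, two-sided, the smallest that 4 mice against 4 allow. The shares of Irf8 (50.8 to 52.9% and 42.8 to 53.5%), Runx1 (52.3 to 56.2% and 51.6 to 58.2%) and Cebpa (18.1 to 20.6% and 16.3 to 19.8%) overlapped. Without mouse 1 the differences of the mean shares were −31.9 percentage points for Maf and −25.0 for Sall1, and 6 factors still did not overlap.

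Thinning left out 287 control and 329 Arpc4dCx3cr1 cells. Without thinning, the mean shares were 90.2% and 63.5% for Maf and 74.4% and 45.4% for Sall1. Cells can hold UMIs of a gene that they do not use, for example from free RNA. T cell-like cells should lack Sall1, Sall3, Spi1 and Cebpa, but 9.46, 4.05, 15.9 and 4.73% of 296 thinned cells held a UMI of them. The exact 95% intervals were 6.38 to 13.4, 2.11 to 6.97, 11.9 to 20.5 and 2.61 to 7.81%, counting error only. The source of these UMIs was not tested. The median depth was 4054.5 UMIs in microglia-like and 4479.5 in T cell-like cells. The lowest Sall1 and Sall3 shares in Arpc4dCx3cr1 mice, 16.5 and 8.80%, lay above these intervals, but the T cell-like cells were pooled over both genotypes. Their Sall1 level by the total was 125 to 164 CPM in controls and 21.0 to 101 CPM in Arpc4dCx3cr1 mice. Microglia-like cells of Arpc4dCx3cr1 mouse 1 held 107 CPM. The pooled intervals therefore cannot decide whether these shares exceed the background. Empty droplets held 216 CPM of Sall1, 66.0 of Sall3, 409 of Maf, 654 of Mef2a, 736 of Mef2c, 486 of Spi1, 328 of Irf8, 245 of Runx1 and 124 of Cebpa. With 25% of that profile subtracted from each sum, the log2 fold changes were −1.66 for Maf and −1.43 for Sall1.

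Across the cell classes, given as CPM by the total alone and with no test because the classes were made from these same cells, Sall1 and Sall3 were highest in microglia-like and Maf in CAM-like cells among the named classes. The unnamed cells of very low UMI counts, whose P2ry12 level (2490.5 to 2945 CPM in controls) overlapped with that of microglia-like cells, held 309.6 to 365 CPM of Sall1, 139 to 210.4 CPM of Sall3 and 1984 to 2313 CPM of Mef2a in controls. In control mice Sall1 lay at 399.5 to 421 CPM in microglia-like, 125 to 164 in T cell-like, 25.2 to 69.2 in CAM-like and 5.10 to 48.5 CPM in monocyte-like cells, of which the last 2 overlapped. Sall3 lay at 139 to 155 CPM in microglia-like, 25.6 to 73.2 in T cell-like, 8.40 to 23.1 in CAM-like and 0 to 16.2 CPM in monocyte-like cells. The T cell-like cells of controls also held 810.5 to 1043 CPM of P2ry12, a microglia gene, and those of Arpc4dCx3cr1 mice 105 to 295 CPM, with 21.0 to 101 CPM of Sall1. The part of microglial RNA in the T cell-like values was not tested.

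Maf in control mice lay at 1058 to 1511 CPM in CAM-like, 851 to 897 in microglia-like, 407 to 521 in T cell-like and 0 to 133 CPM in monocyte-like cells, with no overlap between neighbours. In Arpc4dCx3cr1 mice the distance between the first 2 was wider, with 937 to 2193 CPM in CAM-like and 215 to 411 CPM in microglia-like cells. Maf was also lower without overlap in T cell-like cells of Arpc4dCx3cr1 mice (147 to 284 CPM). This was not particular to Maf: Sall1, Mef2a, Mef2c, Spi1 and the microglia gene P2ry12 were lower without overlap there too. Sall3, Irf8, Runx1 and Cebpa overlapped there, and the share over all genes was not taken for this class. In the unnamed cells Maf was likewise lower, with 201 to 369 CPM against 593 to 754 CPM in controls. Mef2a and Mef2c had 1591 to 1677 and 1655 to 1770.0 CPM in microglia-like cells of controls, 788 to 908 and 932 to 1431 CPM in CAM-like cells, and 273 to 315 and 147 to 384 CPM in monocyte-like cells. Neither MEF2 factor overlapped between these 3 classes.

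Spi1 alone of the 9 was higher in monocyte-like cells (582 to 693 CPM in controls) than in microglia-like cells (491 to 512 CPM) of the same mice. It lay at 396 to 454 CPM in CAM-like and 171 to 224 CPM in T cell-like cells. Irf8 lay at 366 to 387 CPM in microglia-like cells of controls, which overlapped with 281 to 420.1 CPM in monocyte-like cells, and at 231 to 289 CPM in CAM-like cells. Runx1 lay at 463 to 505 CPM in microglia-like, 277 to 343 in CAM-like, 188 to 353 in T cell-like and 81.3 to 189.9 CPM in monocyte-like cells, and Cebpa at 101 to 111, 53.9 to 89.0, 35.2 to 102 and 14 to 88.9 CPM in the same classes. For these last 2 factors the CAM-like and T cell-like ranges overlapped. B cell-like and granulocyte-like cells reached 10 cells in 3 and 2 mice only.

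**Figure D2:**
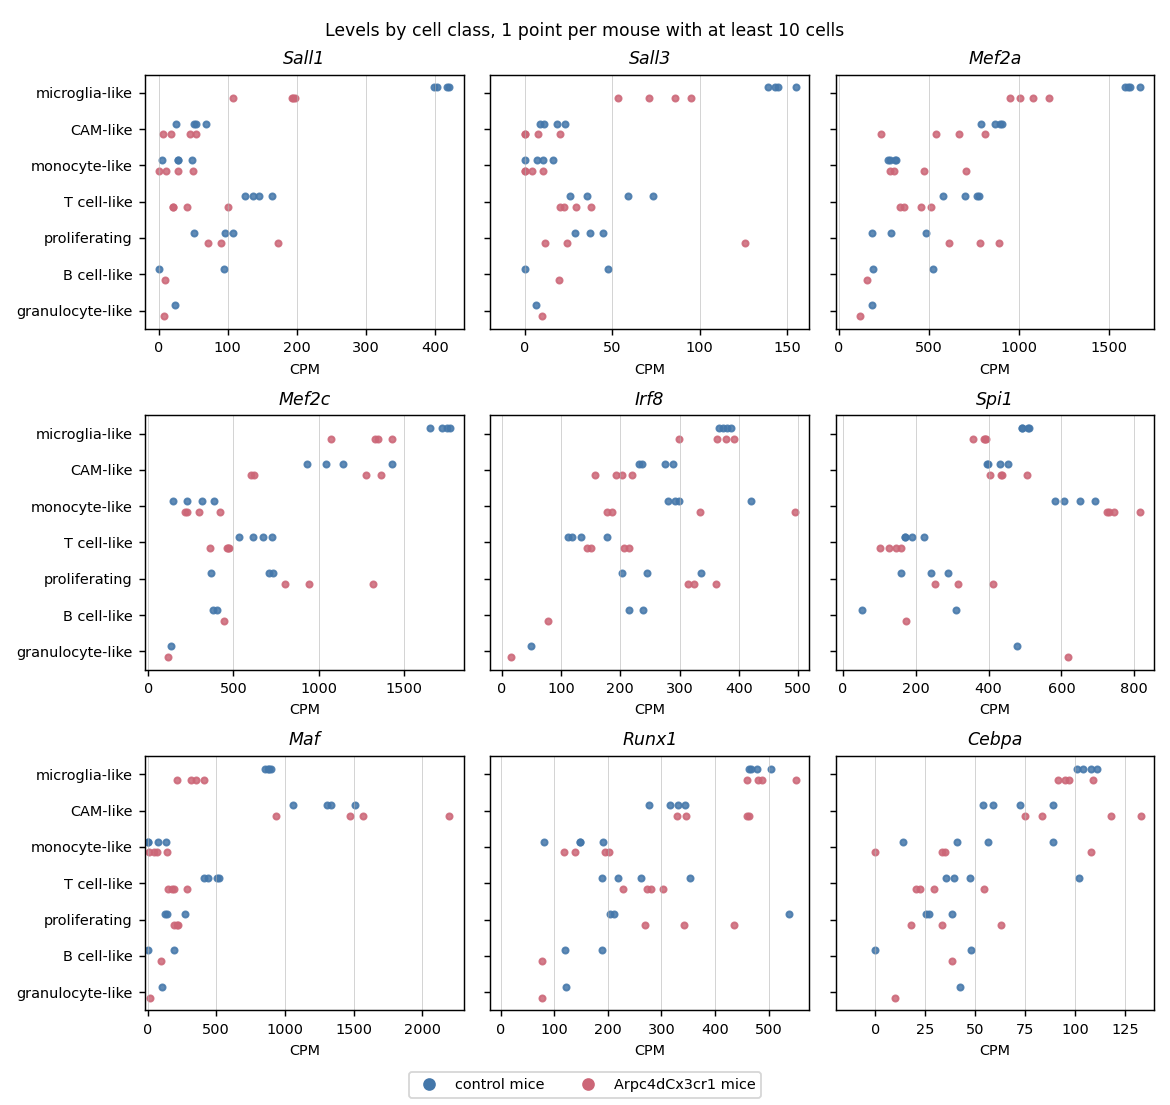
Level of each factor by cell class, in CPM by the total (horizontal axes, linear), with 1 point for each mouse that had at least 10 cells of the class, in blue for control and in red for Arpc4dCx3cr1 mice. Sall1 lies at 399.5 to 421 CPM in microglia-like cells of controls, and the Maf points of both genotypes separate in microglia-like and T cell-like but not in CAM-like cells. In T cell-like cells the points of Sall1, Mef2a, Mef2c and Spi1 separate as well.

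CAM-like cells were compared between genotypes in the same way, since they are the other tissue macrophages of the sort and also use the Cx3cr1 promoter. None of the 7 factors tested was called, against 1.14% of the 3421 genes tested (0.643% as higher and 0.497% as lower), and over all genes 6.49% did not overlap between genotypes. At an unadjusted p under 0.05 there was 1, Mef2a, and DESeq2 called none. Sall1 and Sall3 did not pass the filter on low counts, with 62 and 18 UMIs in all control and 14 and 4 in all Arpc4dCx3cr1 CAM-like cells. Mef2a was read at 1021, 1024, 1070 and 906.7 CPM in controls and at 297.1, 909.7, 814.4 and 602.7 CPM in Arpc4dCx3cr1 mice, which overlapped (log2 fold change −0.63 ± 0.25 SE, adjusted p = 0.314; −0.39 without mouse 1). Maf was read at 1243, 1495, 1574 and 1738 CPM and at 1197, 1759, 1803 and 2463 CPM, with overlap (0.25 ± 0.22 SE, adjusted p = 0.703). These sums rest on 22 to 112 cells per mouse. By the total, CAM-like cells also held 588 to 712 CPM of P2ry12 in controls and 199 to 406 CPM in Arpc4dCx3cr1 mice. The part of microglial RNA in the CAM-like values, here and in the comparison of the 2 classes, was not tested. Arpc4 itself was not called there (222 ± 30.8 CPM in controls and 269 ± 35.9 CPM in Arpc4dCx3cr1 mice, adjusted p = 0.659).

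The genotype difference of 1 factor, Maf, differed between microglia-like and CAM-like cells, against 5.42% of 11112 genes tested (4.66% as higher and 0.756% as lower). Its log2 difference between the classes was −1.45 ± 0.25 SE (adjusted p = 8.86e-04, and 6.34e-09 with the mouse as a block). The median of all genes in this test was 0.19 with TMM and 0.07 with the size factors of DESeq2, under which Maf had −1.56. For Sall1 (−0.24 ± 0.61 SE) and Sall3 (0.11 ± 1.03 SE) the errors were too wide to show a difference at this depth. Without Arpc4dCx3cr1 mouse 1, Irf8 was called as well (0.73, adjusted p = 0.0295). DESeq2 called Spi1 beside Maf (−0.40, adjusted p = 0.0342). At the coarser clustering, at resolution 0.4, the CAM class took in 1269 Arpc4dCx3cr1 and 34 control cells that are microglia-like here. The Maf difference between classes was then −0.03 (adjusted p = 0.957), and the Maf difference within that class was −1.36.

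**Figure D3:**
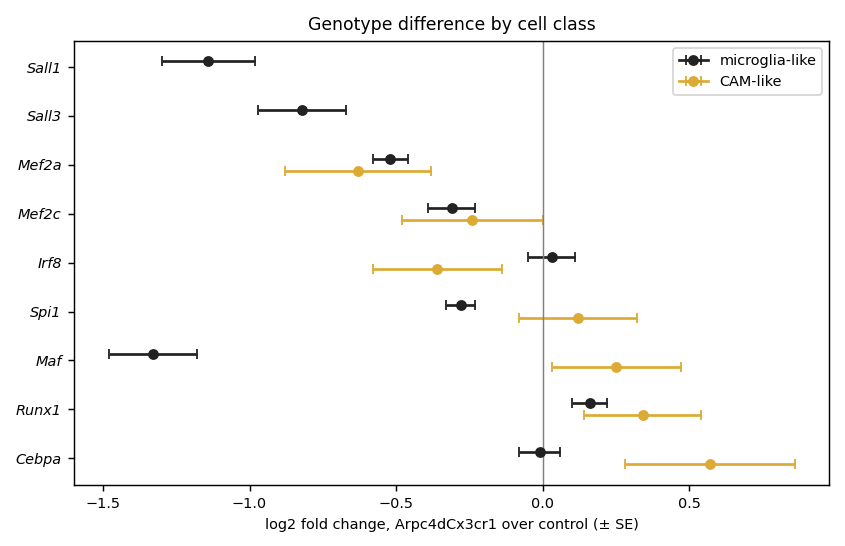
Log2 fold change between Arpc4dCx3cr1 and control mice for each factor (horizontal axis; points with SE bars), in black for microglia-like and in yellow for CAM-like cells; Sall1 and Sall3 have no CAM-like value. Maf lies at −1.33 in microglia-like and 0.25 in CAM-like cells.

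Among the microglia-like cells of Arpc4dCx3cr1 mice, those with 3 or more UMIs of Ms4a7, a membrane gene otherwise known from CAMs, were compared with the remaining ones of the same mouse. They numbered 342, 358, 272 and 446 cells in mice 1 to 4, or 15.7, 15.3, 11.4 and 19.1% of the microglia-like cells, against 0.402 to 1.16% in control mice. Sall1 was the 1 factor called, as lower, against 5.84% of 11725 genes tested (3.34% as higher and 2.50% as lower). It was read at 52.41, 62.14, 90.12 and 94.10 CPM in the Ms4a7-positive cells of mice 1 to 4 and at 115.6, 212.5, 207.9 and 212.6 CPM in their other microglia-like cells, with no overlap, which held for 13% of all genes (log2 fold change −1.32 ± 0.23 SE, adjusted p = 0.00774). At resolution 0.4 of the clustering (−0.70, adjusted p = 0.403) and with 1 or more Ms4a7 UMIs as the limit (−0.89, adjusted p = 0.0677) the call was lost. Neither fit had the mouse as a block. At resolution 0.4, 1269 Arpc4dCx3cr1 cells that are microglia-like here had left the comparison for a CAM cluster led by Pf4, Mrc1 and Ms4a7. Over all genes only 47 were then called as higher and 5 as lower. Without mouse 2 or without mouse 4 its adjusted p was 0.0963 and 0.0543, and without mouse 1 it was 2.48e-05. The direction of Sall1 is not independent of the study's account here either.

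Sall3 went the same way in each mouse, from 76.9, 56.88, 99.09 and 94.01 CPM in the other cells to 33.56, 18.72, 66.36 and 44.74 CPM (log2 fold change −1.01 ± 0.28 SE, adjusted p = 0.0666), but the ranges overlapped. Since both sums come from 1 mouse, they are paired by the tables themselves, and with the mouse as a replicate block 5 factors were called. Over all 11725 genes that fit called 1000 as higher and 925 as lower, against 392 and 293 without the block. The 5 were Sall1 (−1.31), Sall3 (−1.04, adjusted p = 6.28e-06), Mef2c (−0.22, adjusted p = 0.00275) and Irf8 (−0.19, adjusted p = 0.0158) as lower and Cebpa (0.26, adjusted p = 0.0133) as higher. Cebpa was read at 133.1, 99.57, 106.5 and 114.2 CPM in the Ms4a7-positive cells and at 103.3, 87.55, 93.88 and 93.60 CPM in the others. Maf, the factor with the largest genotype difference, was not called in either fit (224.9, 423.7, 356.4 and 372.3 against 210.8, 398.5, 353.8 and 305.1 CPM; 0.12 ± 0.21 SE, adjusted p = 0.832). Mef2a, Spi1 and Runx1 had log2 fold changes of −0.05, 0.05 and −0.13 and were not called in either fit. The reduced Mef2a that the study described in its Ms4a7-high cluster was thus not seen with this split. The study compared that cluster with clusters of both genotypes, whereas the split is within Arpc4dCx3cr1 mice.

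**Figure D4:**
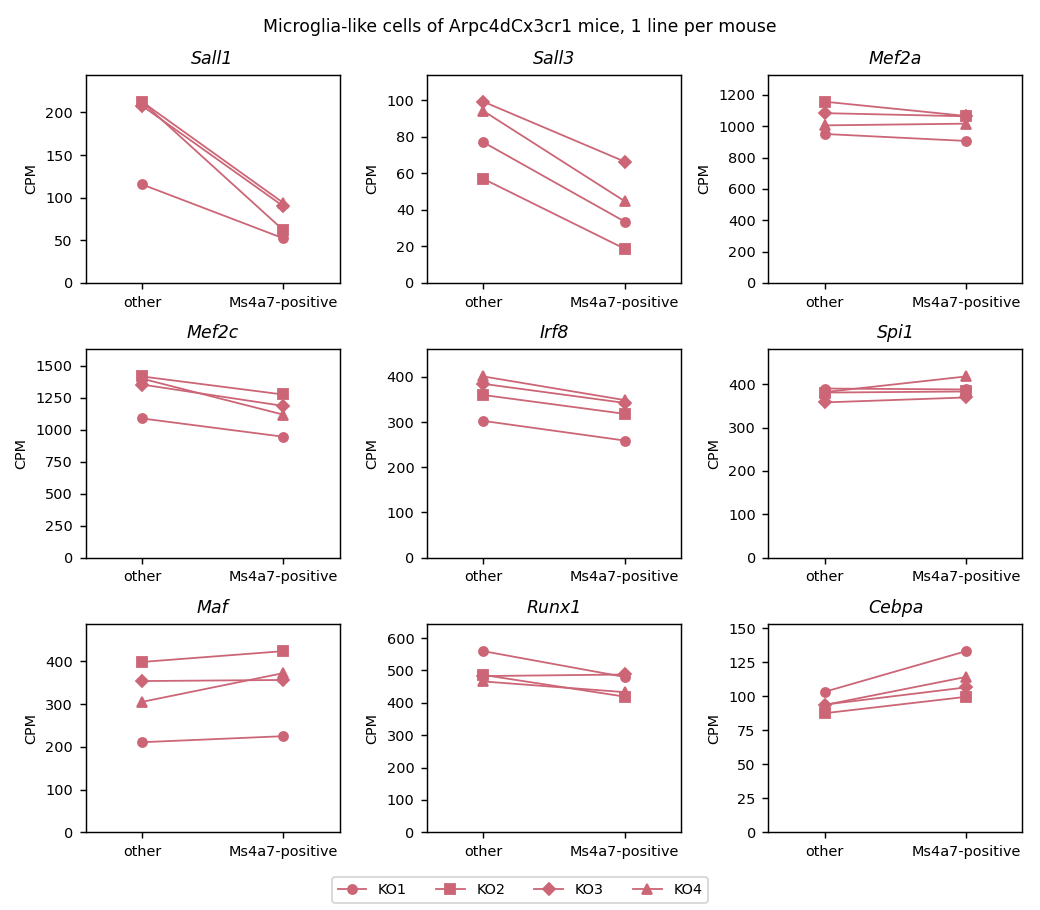
Level of each factor in the Ms4a7-positive and in the other microglia-like cells of Arpc4dCx3cr1 mice, in CPM (vertical axes, linear and starting at 0), with 1 line for each of the 4 mice, told apart by the marker shape. All 4 lines fall for Sall1, Sall3, Mef2c and Irf8 and all 4 climb for Cebpa and Maf, of which Maf was not called, while those of Spi1 stay within 358 to 418 CPM.

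Markers of CAMs moved with this split. Of the 10 CAM markers 3 (Pf4, Stab1 and Siglec1) were higher in the Ms4a7-positive cells without overlap, none was at 0, and their summed level was 153 to 360.0 CPM against 60.8 to 131 CPM in the other cells. Of the 12 microglia markers 7 were lower, with sums of 17985 to 20085 against 22037 to 24887 CPM. Hemoglobin transcripts ranged from 0.803 to 5891 CPM in the Ms4a7-positive and from 2.88 to 640.2 CPM in the other cells. The median depth was 3064 to 4193 UMIs in the Ms4a7-positive and 4042 to 4594 in the other cells. In the Ms4a7-positive cells without any UMI of a CAM marker, a choice made after seeing the data, Sall1 had −1.39 (adjusted p = 0.00288), Sall3 −1.13 (adjusted p = 0.0246) and Maf −0.17 (adjusted p = 0.709). The fall of Sall1 between genotypes was not confined to Ms4a7-positive cells: with them left out of both genotypes, the log2 fold changes were −1.02 for Sall1, −0.72 for Sall3 and −1.35 for Maf, all called.

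Between genotypes, the summed levels of marker lists of other cells moved in both directions. The summed CAM markers were 70.6 to 162 CPM in microglia-like cells of Arpc4dCx3cr1 and 167 to 185 CPM in those of control mice, the 7 monocyte markers 6.96 to 8.27 and 8.57 to 12.2 CPM, the 9 T cell markers 10.9 to 44.3 and 66.9 to 79.1 CPM, and the 7 B cell markers 72.2 to 138 and 225 to 241 CPM, and none of these markers was at 0 in Arpc4dCx3cr1 mice. Higher sums were found for the 6 dendritic cell markers (15.7 to 20.7 against 5.24 to 7.74 CPM, with Ccr7 at 0), the 6 natural killer cell markers (2.23 to 4.29 against 0.332 to 0.529 CPM) and the 8 genes of brain tissue (45.0 to 47.7 against 28.4 to 38.8 CPM, with Cldn5 and Mog at 0). Granulocyte and proliferation markers overlapped, as 88.2 to 91.6 against 85.6 to 103 CPM and 18.6 to 24.7 against 20.5 to 27.1 CPM. Of the 12 microglia markers 10 were lower without overlap and 1, C1qa, was higher. In most other lists few single markers separated the genotypes. Lower without overlap were Stab1 (CAM), Ccr2 (monocyte), Il7r (T cell), Cd79b and Ighm (B cell) and Camp (granulocyte). Higher were Siglec1 (CAM), Zbtb46 (dendritic cell), Klrb1c (natural killer cell) and Gfap, Mbp and Slc1a2 (brain tissue). Of the proliferation markers Top2a, Cdk1 and Ube2c were higher and Stmn1 was lower. The part of these differences in the values of the factors was not tested.

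Microglia-like cells were clustered again without the 9 factors, Arpc4, the genes that the study names and sex-linked genes, which gave 12 clusters, 4 mostly of control and 8 mostly of Arpc4dCx3cr1 cells. Values are medians over the mice of the genotype that made up most of the cluster, with no test. In the 4 control clusters Sall1 lay at 390.3 to 442 CPM and Maf at 824 to 944 CPM. In the other 8 Sall1 ran from 32.1 CPM in cluster 5, led by Ms4a7 and hemoglobin genes, to 265 CPM in cluster 11, led by Arhgap15, Negr1 and Ccr1. Over all microglia-like cells, only Arpc4dCx3cr1 mouse 1 held much hemoglobin (1487 CPM) or Xist (1383 CPM). Cluster 4 was led by Xist and had at least 10 cells in 3 Arpc4dCx3cr1 mice only. Cluster 5 also had one of the lowest Sall3 values (22.8 CPM), with 21.5 in cluster 10 and 22.6 in cluster 11, but its Maf level of 364 CPM was close to the 359.9 CPM of cluster 1, in which Sall1 lay at 233 CPM. Its Mef2a level of 1016 CPM lay between the 182 CPM of cluster 10 and the 1606 CPM of cluster 11. Cluster 11 stood apart for Maf, with 659 to 862 CPM against 127 to 478 CPM over the mice of the other 7 Arpc4dCx3cr1 clusters. Mrc1, a CAM marker, was among its 5 leading genes.

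Some of the spread was within a genotype. Among the control clusters Mef2a went from 673 CPM in cluster 7 to 2053 CPM in cluster 0 and Runx1 from 189 to 597 CPM, while Cebpa went from 166 CPM in cluster 7 down to 89.6 CPM in cluster 0. The median cell held 2450 UMIs in cluster 7 and 4922 in cluster 0. Among the Arpc4dCx3cr1 clusters, cluster 10, led by Cst7, Cox6a2, Cxcl13 and Spp1, had the lowest Mef2a (182 CPM), Mef2c (485 CPM) and Runx1 (103 CPM), at a median of 2609.5 UMIs per cell. In cluster 9, led by Cxcl10 and other interferon-induced genes, 2 control mice had at least 10 cells and held 413 and 438 CPM of Sall1, against 74.2 to 196 CPM in the Arpc4dCx3cr1 mice. In cluster 5, by contrast, the 2 control mice with enough cells held 28.8 and 99.7 CPM, which overlapped with 24.6 to 51.8 CPM in the Arpc4dCx3cr1 mice. In cluster 8, led by Ccl4 and Ccl3, the control mice held 163 to 251 CPM and the Arpc4dCx3cr1 mice 127 to 145 CPM, and in cluster 11 the 2 genotypes overlapped, with 206 to 404 and 229 to 368 CPM in 3 mice each. In cluster 1, mostly of Arpc4dCx3cr1 cells, the controls held 285 to 365 CPM of Sall1 and the Arpc4dCx3cr1 mice 227 to 250.4 CPM. Irf8 and Spi1 moved within 317 to 452 and 361 to 632 CPM over all 12 clusters.

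**Figure D5:**
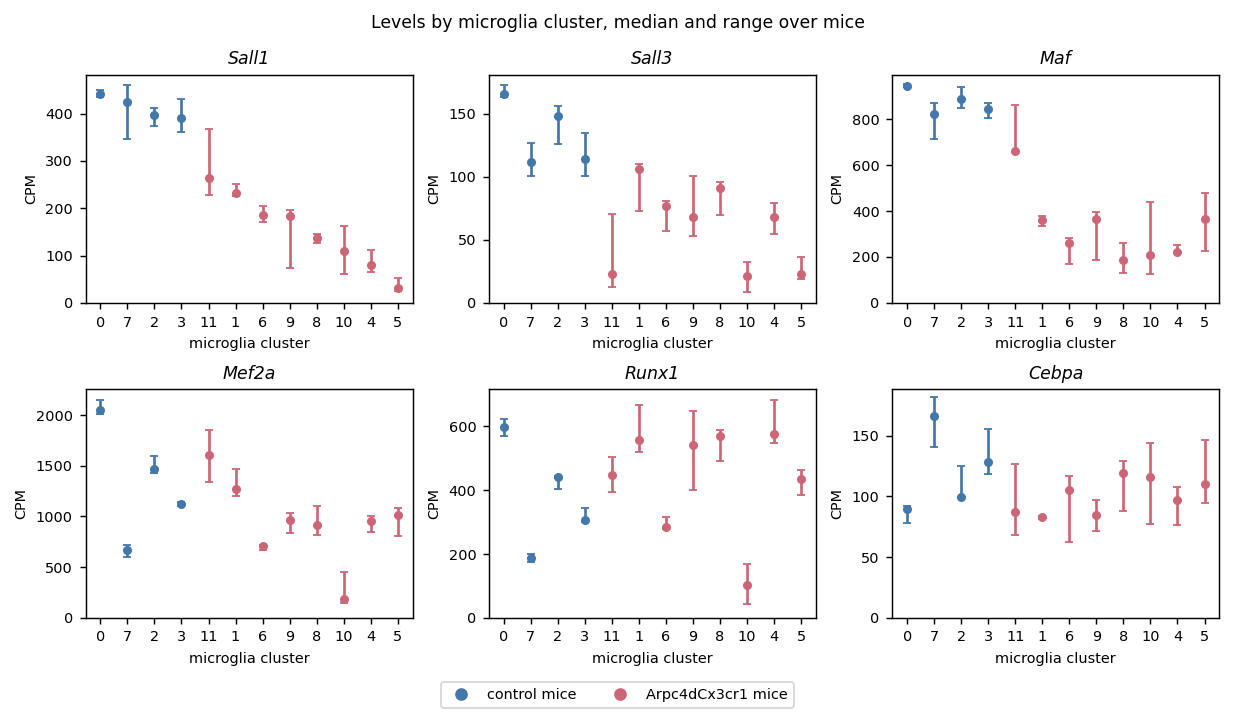
Levels of 6 factors in the 12 microglia clusters, in CPM by the total (vertical axes, linear and starting at 0): points are the median and bars the range over mice with at least 10 cells, in blue for clusters mostly of control and in red for clusters mostly of Arpc4dCx3cr1 cells, ordered by Sall1 within each genotype. Sall1 and Maf are higher in the 4 control clusters, with cluster 11 nearest to them, while Runx1 and Cebpa vary within both genotypes.

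Other genes around these factors moved in both directions between genotypes, beside a median log2 fold change of −0.01 over all genes tested. Of all genes tested 22.8% were called as higher and 23.2% as lower. Of 26 family members and partners 21 were tested, of which 7 rose, 6 fell and 8 were not called (median 0.15). The largest rises were Runx3 (2.43 ± 0.446 to 37.1 ± 13.4 CPM, SD, n = 4 each) and the interferon-induced Irf7 (6.64 ± 1.56 to 44.2 ± 13.5 CPM), and the largest falls Sall2 (12 ± 1.51 to 6.01 ± 1.23 CPM) and Cebpd (144 ± 8.0 to 76.1 ± 33.3 CPM). Of 40 other macrophage transcription factors 37 were tested, of which 16 rose, 10 fell and 11 were not called (median 0.21). Bhlhe40, a factor of activated immune cells, rose from 2.73 ± 0.686 to 54.6 ± 14.6 CPM and the immediate early factor Egr1 from 3.44 ± 1.49 to 27.8 ± 11.6 CPM, while Klf2 and Rxra fell by 0.93 and 0.81 on the log2 scale.

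Of 21 genes of the TGFβ pathway 20 were tested, of which 3 rose, 9 fell and 8 were not called (median −0.05). Itgb8, an integrin subunit that takes part in TGFβ activation, rose from 6.26 ± 1.6 to 148 ± 26.1 CPM (log2 fold change 4.6 ± 0.18 SE), and the corepressor Tgif1 rose from 25.5 ± 2.63 to 45.4 ± 1.46 CPM. The accessory receptor Eng fell from 63.4 ± 2.02 to 28.6 ± 6.67 CPM and Tgif2 from 9.52 ± 1.19 to 5.76 ± 1.17 CPM. All 16 homeostatic microglia genes fell (median −1.06), led by Ecscr (−3.59) and Crybb1 (−2.97). The study describes such genes as reduced in Arpc4-deficient microglia, so that direction is not independent evidence. In the Ms4a7-positive cells of Arpc4dCx3cr1 mice 11 of the 16 fell, 5 were not called and none rose, and of the 22 family members and partners tested 4 rose and none fell. Of the other macrophage factors 3 rose, 3 fell and 30 were not called there, and of the TGFβ pathway 3 rose, 1 fell and 16 were not called. Over all genes tested in that comparison 3.34% were called as higher and 2.50% as lower.

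The genes whose pattern was most like each factor were found over 43 sums of 1 mouse and 1 class each, of 7 classes. The sums share their mice and the library, and genes are not independent replicates. Pearson's r of the log2 CPM with Sall1 was highest for 8030442B05Rik (0.926) and Epb41l2 (0.920), with Sall3 for Tjp1 (0.861) and Trim2 (0.855), and with Maf for Ltc4s (0.915). Mef2a was most like Cx3cr1 (0.934) and Chd9 (0.933), and Mef2c most like Fcrls and Pmepa1 (0.928 each). For the general myeloid factors these were Alox5ap (0.877) and Myadm (0.840) for Spi1, Gdi2 (0.808) and Plekho1 (0.798) for Irf8, Chd6 (0.840) and Atf2 (0.839) for Runx1, and Oma1 (0.828) and Klhl24 (0.804) for Cebpa.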

How the data were processed

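Brain CD45+ cells of 4 control and 4 Arpc4dCx3cr1 mice were tagged per mouse and pooled. The authors aligned the reads to mm10 and deposited raw UMI counts of each mouse and of the unfiltered pool, uncorrected for free RNA. The submitters' processing notes name Cell Ranger 6.1.2, while the headers of the deposited tables name version 7.1.0. Whether intronic reads were counted is not given in the sources used here. The protocol label speaks of fewer mice than the 8 that the tags name. The study's methods tell of a female Arpc4dCx3cr1 mouse that was left out there, without saying which, so all 8 mice entered here. By its Xist level it was most likely mouse 1, without which the genotype differences in microglia-like cells are also given.

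Cells were kept from 200 genes upward and up to 20% of mitochondrial UMIs, and clustered with Seurat 5.3.0 in R 4.3.3 (10000 variable genes without the 9 factors, 20 principal components, 20 neighbours, resolution 0.8). Clusters were named from fixed marker lists. No doublet caller was run, since the authors had assigned each cell to 1 tag. That assignment does not remove doublets of cells from the same mouse, so these may remain. UMIs were summed per mouse and class with at least 10 cells. Sums were tested in edgeR 4.0.16 by its quasi-likelihood test after filterByExpr and TMM (threshold: adjusted p under 0.05), with DESeq2 1.42.0 as an alternative, and shares with exact permutation tests in scipy 1.17.1. The tests were run on simulated counts with known changes first. Mouse numbers pair nothing between genotypes (correlations of deviations −0.07 to −0.01), but sums from 1 mouse are paired by construction. Empty droplets are the 1769098 barcodes of at most 100 UMIs. Likeness was taken on log2(CPM + 10) over genes with at least 500 UMIs. Positions come from GENCODE vM21, to which 32158 of 32285 gene identifiers matched. Sequences come from the RefSeq tables, which matched 6 of the 9 factors.

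The sums over microglia-like cells rest on 996 to 2384 cells per mouse, those over CAM-like cells on 22 to 112, so small differences in CAM-like cells could not be detected. The text names the 9 factors, Arpc4 and Ms4a7, the 2 genes most like each factor (1 of them is not reported here), and up to 2 rises and 2 falls of each list. The factors, lists and tests were chosen with earlier results of these data known.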

Additional observations from a re-analysis of the deposited data

Results flagged for a closer look

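In 68 groups of 4 mice, 4 held a value far from the other 3 (Dixon's test at 95%), and chance gives about 1 in 20. Sall1 in microglia-like cells was 111 CPM in Arpc4dCx3cr1 mouse 1, against 201 to 204 CPM in mice 2 to 4. Sall1 in the microglia-like cells of that mouse that were not Ms4a7-positive was 116 CPM, against 208 to 213 CPM in the others. Spi1 in CAM-like cells of the same mouse was 645 CPM, against 488 to 494 CPM. Mef2c in microglia-like cells of control mouse 2 was 1593 CPM, against 1687 to 1697 CPM in the other controls. The genotype difference of Maf in microglia-like cells minus that in CAM-like cells was −1.45 on the log2 scale (SE 0.25, adjusted p = 8.86e-04, edgeR's interaction test).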

How the results depend on the processing

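The 6 calls between genotypes in microglia-like cells were kept under every alternative run, leaving out each mouse, a block for the mouse number (6 called) and removal of cells with 3 or more Ms4a7 UMIs included, with log2 fold changes of −1.66 to −1.18 for Maf and −1.43 to −0.97 for Sall1. Between Ms4a7-positive and other cells 1 factor was called, but 2 with no filter, with DESeq2 and for the Ms4a7-high cluster, 3 without cells holding a CAM marker UMI (chosen after seeing the data), 5 with the mouse as a replicate block, 0 at resolution 0.4 and with 1 or more Ms4a7 UMIs, and 0 to 1 when leaving out a mouse. Over all genes 392 were higher and 293 lower there, against 1000 and 925 with the block, 824 and 940 for the cluster, 231 and 114 with 1 or more UMIs, 47 and 5 at resolution 0.4, 665 and 530 without Arpc4dCx3cr1 mouse 1, and 133 and 62, 163 and 100, and 110 and 55 without mouse 2, 3 or 4. In CAM-like cells 0 factors were called, with the block for the mouse number too, but 1 at resolution 0.4, where Maf reversed to −1.36 and the class took in 1269 Arpc4dCx3cr1 cells that are microglia-like otherwise. Over all genes 22 were higher and 17 lower there, against 71 and 60 with no filter, 385 and 451 at resolution 0.4, 4 and 8 with 25% of the empty droplet profile subtracted, 11 and 13 with the block, 4 and 11, 14 and 10, 3 and 6, and 9 and 9 without control mouse 1, 2, 3 or 4, and 31 and 33 and 37 and 25 without Arpc4dCx3cr1 mouse 2 or 4. The difference between classes was called for 1 factor, for 2 with DESeq2, 0 at resolution 0.4 and 1 to 2 when leaving out a mouse. Over all genes 518 were higher and 84 lower, against 702 and 331 at resolution 0.4, 514 and 220 with DESeq2, and 332 and 58, 316 and 62, and 310 and 62 without control mouse 1, 2 or 4. Where no cause is given, the cause was not tested. CAM-like sums are small, which limits what could be detected there.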
